A study of Mus musculus with 20 samples.

Results

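The 9 genes described here encode inhibitory receptors that T cells can carry beside PD-1, together with a ligand of one of them: Ctla4, Lag3, Havcr2 (the gene of TIM-3), Tigit, Cd160, Btla, Vsir (the gene of VISTA), Lgals9 (galectin-9) and Cd200r1. They were listed by name, and are 9 of the 55260 genes to which the transcript counts were summed. All 9 passed the filter on low counts. RNA had been sequenced from 4 populations sorted from tumours of MC38-OVA, a mouse colon carcinoma line that expresses ovalbumin, grown in C57BL/6 mice. The populations were CD8 T cells, CD11c+CD11b- and CD11c+CD11b+ cells, both labelled dendritic cells, and CD11c-CD11b+ cells, labelled myeloid cells. The last 3 are called myeloid fractions for short, a name that follows the sort and not their transcripts. CD11c and CD11b are surface integrins. The mice were untreated or received 8 Gy of radiotherapy (RT) on day 12, and irradiated mice received no antibody, anti-SIRPa, anti-PD-1 or both, which makes 5 treatments. Anti-SIRPa, against a myeloid receptor that restrains phagocytosis, was given at 400 µg on days 12, 14 and 16. Anti-PD-1 was given at 250 µg on days 12 and 15. Tumours were taken on day 17, 5 days after irradiation. Leukocytes of 10 tumours from 10 mice were pooled for each treatment, and the 4 populations of a treatment come from the same pool. Each of the 20 combinations of population and treatment was therefore 1 library, with no second library of the same kind, so every spread given is between pools that differ in treatment.

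Inhibitory receptors restrain activated T cells. CTLA-4 competes with the costimulatory receptor CD28 for CD80 and CD86, TIGIT competes with CD226 for PVR and nectins, and CD160 and BTLA both bind the herpesvirus entry mediator encoded by Tnfrsf14. LAG-3 binds MHC class II and soluble ligands, and TIM-3 binds galectin-9, phosphatidylserine, CEACAM1 and HMGB1. In chronically stimulated T cells of tumours several of these receptors are expressed together. They are not confined to T cells: NK cells carry TIGIT and CD160, dendritic cells and macrophages carry TIM-3, BTLA is found on dendritic and B cells, and VISTA and the CD200 receptor are abundant on myeloid cells.

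In the 4 irradiated pools, Ctla4, Lag3, Tigit and Cd160 were each higher in every CD8 T library than in any library of the other populations. The other 5 genes did not have that order. Havcr2 had its highest mean in CD8 T cells but overlapped with CD11c+CD11b+ cells. Btla was highest in CD11c+CD11b- cells. The mean of Vsir and of Cd200r1 was highest in CD11c+CD11b+ cells and that of Lgals9 in CD11c-CD11b+ cells, in each case with ranges that overlapped between these 2 fractions. For Tigit the gap was narrow, from 65.6 CPM in CD11c+CD11b- cells to 69.8 CPM in CD8 T cells. The share of all genes with the order of the first 4 was not counted, so that order is not shown to be particular to them.

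Library totals ran from 21522743 to 35696925 estimated counts, and the lowest count of any of the 9 genes in any library was 29, for Ctla4, so that single low values carry a wide counting error. The library labelled untreated CD8 T stood apart. Its 10 T cell markers were at 4.34 to 7.35% of their mean in the other CD8 T libraries, and its 10 macrophage markers summed to 18310 CPM (counts scaled to library size) against 1202 to 2679 CPM in those libraries. CD11c+CD11b- cells carried 6 NK cell markers at a summed 1330 to 2422 CPM, against at most 222 CPM in any other library, beside the cDC1 and mature dendritic cell markers given with Btla. Their 10 T cell markers summed to 225 to 440 CPM, compared with 13.8 to 24.6 CPM in CD11c+CD11b+ and 46.7 to 86.7 CPM in CD11c-CD11b+ cells. In irradiated CD8 T libraries the B cell markers summed to at most 3.71 CPM. No extraction or sequencing batch is given in the labels. Results that rest on the untreated CD8 T library are given with and without it where it can be left out.

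**Figure D1:**
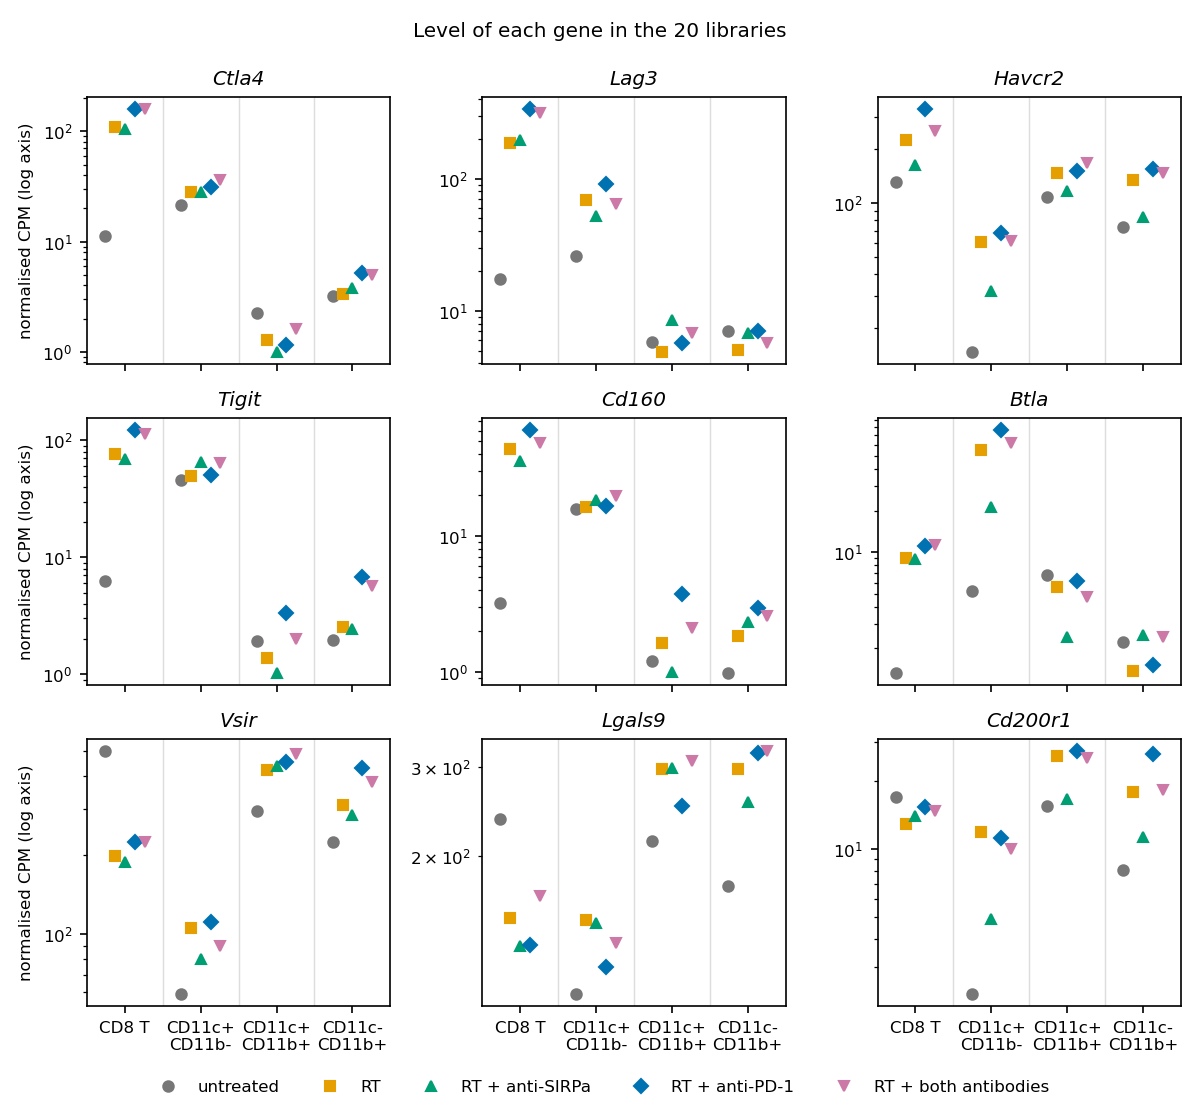
Normalised CPM (log axis) of each of the 9 genes in the 4 sorted populations, with 1 point per library and colours for the 5 treatments. Ctla4, Lag3, Tigit and Cd160 are highest in the irradiated CD8 T libraries and next in CD11c+CD11b- cells, while the untreated CD8 T point lies far below the other 4.

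Ctla4 lies on the forward strand of chromosome 1 (GRCm38 chr1:60887000-60915832), and its protein outcompetes CD28 for their shared ligands. Where 5 values follow each other, the first is from untreated tumours, and the others are from RT alone, RT plus anti-SIRPa, RT plus anti-PD-1, and RT plus both. The annotated gene also overlaps the pseudogene Rpl18-ps1 on the same strand. Its normalised level in CD8 T cells was 11.2, 109, 105, 159 and 158 CPM. The untreated library was far below the others, and the 2 libraries with anti-PD-1 were above the 2 without it. CD11c+CD11b- cells had Ctla4 at 21.4, 27.9, 28.3, 31.3 and 35.9 CPM, a narrow range with no overlap with the irradiated CD8 T cells. CD11c-CD11b+ cells had 3.22 to 5.17 CPM and CD11c+CD11b+ cells 0.998 to 2.26 CPM. Most Ctla4 counts fell on the full-length transcript Ctla4-201. A transcript that skips exon 3, Ctla4-202, held 3.98% ± 1.19 (SD, n = 5) of Ctla4 counts in CD8 T cells and 0.651% ± 1.46 (SD, n = 5) in CD11c+CD11b- cells. The skipped exon is shown because it encodes the membrane-spanning part, and the transcript without it is the known soluble form. It spans 110 bases (GRCm38 chr1:60913219-60913328, forward strand, coding), which is not a multiple of 3, so the reading frame after it changes.
Ctla4 exon 3: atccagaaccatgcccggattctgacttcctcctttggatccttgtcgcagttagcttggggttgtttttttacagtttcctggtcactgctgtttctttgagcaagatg

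Lag3 (chr6:124904361-124911705, reverse strand), a CD4-like receptor for MHC class II, followed the same order. In CD8 T cells it was at 17.3, 186, 197, 335 and 313 CPM, and the 2 highest libraries were again those with anti-PD-1. CD11c+CD11b- cells had 26.0, 68.8, 52.1, 90.4 and 64.1 CPM, so the irradiated libraries all exceeded the untreated one. The CD11b+ fractions held 4.90 to 8.59 CPM, with overlapping ranges and no difference called between them (log2 difference -0.03 ± 0.14 SE, n = 5 pools, edgeR adjusted p = 0.92). On a scale corrected for transcript length, Lag3 was the most abundant of the 9 genes in irradiated CD8 T cells, at a median of 255 TPM (counts scaled to transcript length and library size), ahead of Tigit at 198 and Lgals9 at 190 TPM. The ranges of these neighbours overlapped, since Lag3 spanned 184 to 326 TPM, Tigit 165 to 257 TPM and Lgals9 168 to 202 TPM. Btla was the lowest of the 9 at a median of 7.60 TPM.

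Tigit (chr16:43648867-43664146, reverse strand), which binds PVR and nectins, was at 6.26, 76.9, 69.8, 122 and 113 CPM in CD8 T cells. In CD11c+CD11b- cells it was at 45.6, 49.8, 65.6, 51.0 and 64.6 CPM, so its untreated library was close to the irradiated ones. Among the irradiated pools, the lowest CD8 T library lay just above the highest CD11c+CD11b- library. CD11c-CD11b+ cells had 1.97 to 6.76 CPM and CD11c+CD11b+ cells 1.03 to 3.34 CPM.

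Cd160 (chr3:96798763-96829351, reverse strand), a receptor of cytotoxic lymphocytes that binds the herpesvirus entry mediator, was at 3.23, 43.6, 35.5, 60.2 and 48.5 CPM in CD8 T cells. CD11c+CD11b- cells held it at 15.9 to 19.9 CPM in all 5 treatments. Both CD11b+ fractions were low, at 0.986 to 3.73 CPM. The counts in the low fractions fell on another transcript. Cd160-201, which begins at position 96814521, held 85.2% ± 5.57 (SD, n = 5) of Cd160 counts in CD8 T cells and 83.1% ± 3.44 (SD, n = 5) in CD11c+CD11b- cells. In CD11c+CD11b+ cells it received 1 count over 5 libraries, against 271 for Cd160-202, which begins further upstream at position 96829351. In CD11c-CD11b+ cells Cd160-201 received 0 of 282 counts, which allows a share of up to 1.06% by counting error alone, and Cd160-202 received 265. CD8 T cells in turn had 0 of 4823 counts on Cd160-202, which allows up to 0.0622%. The upstream start also received counts in them, since Cd160-203, which shares it, held 14.8% ± 5.57 (SD, n = 5). Such splits are the authors' estimates, and the pattern was noticed in the data and was not tested. It rests on 30 to 95 counts per CD11b+ library. Pdzk1, which overlaps Cd160 on the opposite strand, was itself at no more than 0.429 CPM in those fractions. The windows upstream of both start sites, 250 to 31 bases before them, are shown because the transcripts that dominate in the CD11b- and CD11b+ populations begin at different ones. They come from RefSeq on GRCm38.p6, chr3:96814552-96814771 for Cd160-201 and chr3:96829382-96829601 for the upstream start, reverse strand. Capitals mark matches on either strand to GGAAA (the NFAT core), TGTGGT (RUNX), GGAAGT (ETS) or TGANTCA (AP-1).
Cd160 start of Cd160-201: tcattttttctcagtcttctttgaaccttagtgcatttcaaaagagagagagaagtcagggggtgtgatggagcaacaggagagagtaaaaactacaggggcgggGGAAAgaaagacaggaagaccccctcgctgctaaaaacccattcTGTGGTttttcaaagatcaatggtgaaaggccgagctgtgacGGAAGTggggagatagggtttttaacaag
Cd160 upstream start: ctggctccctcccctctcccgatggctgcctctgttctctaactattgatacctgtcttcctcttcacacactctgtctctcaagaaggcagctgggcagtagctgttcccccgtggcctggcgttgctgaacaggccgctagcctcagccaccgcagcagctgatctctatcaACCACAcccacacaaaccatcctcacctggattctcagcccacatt

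**Figure D2:**
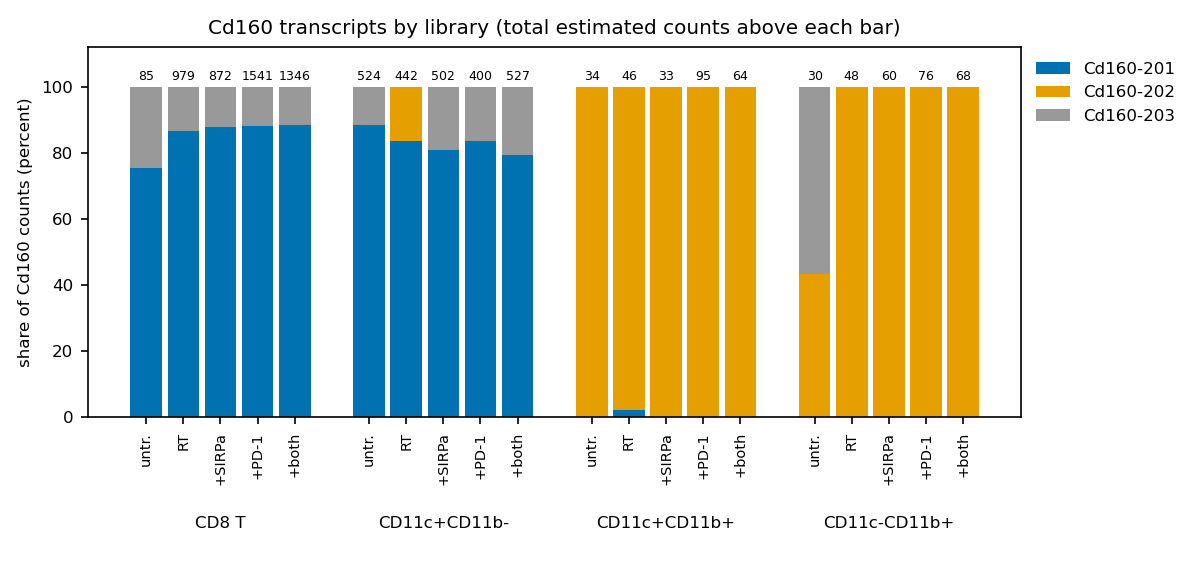
Share of Cd160 counts (percent) on each of its 3 annotated transcripts, with 1 stacked bar per library and the gene's total estimated count above it; treatments are shortened to untr., RT, and RT with anti-SIRPa, anti-PD-1 or both. Cd160-201 makes up 75.3 to 88.4% in the CD8 T and CD11c+CD11b- libraries and 0 to 2.17% in the CD11b+ libraries, whose totals are 30 to 95 counts.

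The window before the downstream start of Cd160 held 3 of the 4 motifs and the upstream one held a RUNX match. These letters are common: among 32851 promoter windows of the same length, GGAAA was found in 51.3%, GGAAGT in 16.5%, TGTGGT in 12.7% and TGANTCA in 6.12%. The matching windows of Ctla4 and Tigit are printed because these genes had the same order of populations. Both came from RefSeq on GRCm38.p6, chr1:60908775-60908994 (forward strand) and chr16:43664215-43664434 (reverse strand). Each had a GGAAA match on the reverse of the printed strand, and that of Tigit also had a TGTGGT match. No pair of matches in the printed windows shared a base.
Ctla4 promoter: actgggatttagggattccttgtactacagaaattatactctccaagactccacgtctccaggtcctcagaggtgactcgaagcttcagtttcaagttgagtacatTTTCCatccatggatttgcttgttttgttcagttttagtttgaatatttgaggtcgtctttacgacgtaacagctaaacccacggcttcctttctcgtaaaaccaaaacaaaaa
Tigit promoter: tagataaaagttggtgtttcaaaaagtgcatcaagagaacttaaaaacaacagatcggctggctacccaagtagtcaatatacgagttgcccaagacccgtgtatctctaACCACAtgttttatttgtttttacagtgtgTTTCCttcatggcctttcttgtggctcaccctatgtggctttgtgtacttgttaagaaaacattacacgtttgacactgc

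Btla encodes a receptor that, like CD160, binds the herpesvirus entry mediator (chr16:45224315-45257670, forward strand). It did not follow the T cell genes. In CD11c+CD11b- cells it was at 5.21, 54.8, 21.2, 76.2 and 61.5 CPM, while CD8 T cells had 1.33, 8.99, 8.92, 11.1 and 11.3 CPM. Every irradiated CD11c+CD11b- library was above every CD8 T library. CD11c+CD11b+ cells had 2.42 to 6.85 CPM and CD11c-CD11b+ cells 1.37 to 2.50 CPM. The markers of conventional dendritic cells of type 1 (cDC1) summed to 42.5, 347, 142, 411 and 336 CPM in the CD11c+CD11b- libraries, lowest in the same 2 libraries as Btla and highest in the same one. Those of mature dendritic cells summed to 369, 1400, 676, 1563 and 1177 CPM. The pattern was not particular to these lists. In the same libraries markers of plasmacytoid dendritic cells summed to 394.1, 750.5, 391.2, 960.6 and 631.1 CPM. Those of CD4 and regulatory T cells summed to 61.7, 177, 124, 187 and 159 CPM. Monocyte and mast cell markers were also lowest in the same 2 libraries. NK cell and T cell markers were lowest in the untreated library but highest with RT plus anti-SIRPa, at 2422 and 440 CPM. The part of these cells in the Btla level was not tested. In these bulk libraries fewer cells of a type and less RNA per cell cannot be told apart, here and in every comparison that follows.

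Havcr2 (chr11:46454935-46481255, forward strand), whose protein TIM-3 is found on exhausted T cells and on dendritic cells and macrophages, was at 131, 223, 162, 333 and 253 CPM in CD8 T cells. The untreated CD8 T library was the lowest of these, by far less than for the T cell markers. CD11c+CD11b+ cells had 108, 146, 116, 150 and 167 CPM and CD11c-CD11b+ cells 73.2, 134, 83.6, 155 and 148 CPM, with overlapping ranges. CD11c+CD11b- cells had the lowest levels, at 14.7, 60.8, 32.3, 67.6 and 61.0 CPM, and in all 3 myeloid fractions the untreated library was the lowest and RT plus anti-SIRPa the lowest of the irradiated libraries.

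Vsir (chr10:60346851-60372684, forward strand), whose protein VISTA acts both as a receptor and as a ligand, was at 296, 421, 438, 454 and 486 CPM in CD11c+CD11b+ cells. CD11c-CD11b+ cells had 225, 311, 284, 429 and 382 CPM, and CD11c+CD11b- cells 59.0 to 111 CPM. The 4 irradiated CD8 T libraries, at 188 to 225 CPM, lay between the irradiated libraries of these last 2 fractions, while the untreated CD8 T library held 498 CPM, the highest value of Vsir in any library. Vsir lies within Cdh23, a gene of the opposite strand that reached at most 12.9 CPM.

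Cd200r1 (chr16:44765736-44794978, forward strand), an inhibitory receptor of myeloid cells for CD200, was at 15.5, 26.0, 16.6, 27.1 and 25.3 CPM in CD11c+CD11b+ cells. CD11c-CD11b+ cells had 8.09, 17.9, 11.3, 26.4 and 18.2 CPM, CD8 T cells 12.9 to 17.1 CPM and CD11c+CD11b- cells 2.27 to 11.9 CPM. Its paralog Cd200r4 was measured at 4.48 to 23.9 CPM. Reads shared between the paralogs may have been split between them, so the values of Cd200r1 are uncertain to that extent.

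Lgals9 encodes galectin-9, a secreted lectin and ligand of TIM-3 (chr11:78962974-78984946, reverse strand). It was at 174 to 323 CPM in CD11c-CD11b+ cells, 214 to 308 CPM in CD11c+CD11b+ cells, 107 to 149 CPM in CD11c+CD11b- cells and 133 to 237 CPM in CD8 T cells, where the untreated library was again the highest. Its 2 main transcripts differ by exon 5 of Lgals9-203, a coding exon of 93 bases (GRCm38 chr11:78969714-78969806, reverse strand) in the linker between the 2 sugar-binding domains. It is shown because its inclusion sets the linker length of the ligand and could be read in every population. Lgals9-203 held 55.7% ± 7.38 of Lgals9 counts in CD8 T cells, 51.4% ± 5.06 in CD11c+CD11b- cells, 54.1% ± 2.26 in CD11c+CD11b+ cells and 54.1% ± 5.48 in CD11c-CD11b+ cells (SD, n = 5 each). The ranges of all 4 populations overlapped.
Lgals9 exon 5: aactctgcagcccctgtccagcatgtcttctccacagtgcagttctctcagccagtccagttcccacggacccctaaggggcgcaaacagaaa

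Differences between populations were tested over the 5 pools with edgeR's quasi-likelihood test, the pool being a term, and p-values were adjusted over all genes tested. Standard errors are approximate. CD11c+CD11b- cells differed from both CD11b+ fractions in all 9 genes. Ctla4, Lag3, Tigit, Cd160 and Btla were higher, and Havcr2, Vsir, Lgals9 and Cd200r1 were lower. Against CD11c+CD11b+ cells, 41.6% of 20905 genes passed the same test, and against CD11c-CD11b+ cells 43.3% of 21282, and both counts of 9 stayed at 9 with any pool left out. The largest difference was that of Tigit, 4.89 ± 0.28 (SE, n = 5 pools) on the log2 scale over CD11c+CD11b+ cells (edgeR adjusted p = 2.5e-05). Ctla4 was 4.32 ± 0.25 higher in the same comparison (edgeR adjusted p = 2.5e-05), and Vsir was lower by 2.25 ± 0.09, with a log2 difference of -2.25 (edgeR adjusted p = 7.8e-06). Btla had the widest error, 2.81 ± 0.63 (edgeR adjusted p = 0.010). The NK cell markers, which moved with the first of these groups, summed to 1330 to 2422 CPM in CD11c+CD11b- and 57.0 to 91.7 CPM in CD11c+CD11b+ cells, and their part in the differences was not tested. Over CD11c-CD11b+ cells Ctla4 was higher by 2.84 ± 0.10 and Tigit by 3.97 ± 0.29 (edgeR adjusted p = 1.3e-05 and 8.1e-05). The T cell markers moved with them as a summed list, at 225 to 440 CPM against 46.7 to 86.7 CPM, and their part was not tested. Of that list, Cd3e stood at -0.08 ± 0.19 on the log2 scale (edgeR adjusted p = 0.76). The value of Cd8a was 0.66 ± 0.36 (edgeR adjusted p = 0.18), and 1.05 ± 0.13 without the untreated pool (adjusted p = 0.00087).

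The CD11b+ fractions were closer to each other. CD11c+CD11b+ cells were higher in Btla (1.30 ± 0.31, edgeR adjusted p = 0.019), Cd200r1 (0.48 ± 0.13, adjusted p = 0.028) and Vsir (0.36 ± 0.09, adjusted p = 0.023). They were lower in Ctla4 (-1.53 ± 0.26, edgeR adjusted p = 0.0048) and Tigit (-0.97 ± 0.24, adjusted p = 0.022). The share of all genes that passed was 21.4%. The count of 5 fell to 1 without the RT pool, to 3 without the pool of RT plus anti-SIRPa, to 3 without that of RT plus both antibodies, and to 2 without the pool term. The share of all genes fell too, to 13.2%, 14.5%, 14.8% and 5.07% in the same order. Macrophage markers moved with Btla, Cd200r1 and Vsir, at a summed 7377 to 13950 CPM in CD11c+CD11b+ and 4300 to 8297 CPM in CD11c-CD11b+ cells, and mature dendritic cell markers at 246 to 564 CPM and 84.7 to 254 CPM. Both lists were higher in CD11c+CD11b+ cells within each of the 5 pools, and their part was not tested. T cell markers went the way of Ctla4 and Tigit, with Cd3e lower by a log2 difference of -2.88 ± 0.29 (edgeR adjusted p = 0.00071).

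CD8 T cells exceeded both CD11b+ fractions in Ctla4, Lag3, Tigit, Cd160 and Havcr2. Over CD11c+CD11b+ cells these log2 differences were 6.00 ± 0.84, 4.69 ± 0.72, 5.07 ± 0.74, 4.07 ± 0.57 and 0.63 ± 0.14 (SE, n = 5 pools, edgeR adjusted p = 0.018, 0.019, 0.018, 0.018 and 0.033). Lgals9 was lower, at -0.76 ± 0.20 (edgeR adjusted p = 0.044). Of all genes, 22.3% passed. This count of 6 rose to 9 without the untreated pool, where 46.3% of all genes passed, and was 0 when any single irradiated pool was left out, where only 0.0384 to 0.189% of all genes passed. Over CD11c-CD11b+ cells the 5 differences were 4.40 ± 0.56, 4.71 ± 0.75, 4.05 ± 0.52, 3.83 ± 0.44 and 0.88 ± 0.11 (edgeR adjusted p = 0.0040, 0.0083, 0.0041, 0.0031 and 0.0036), where 24.0% of all genes passed. Without the untreated pool, 8 of 9 passed, beside 48.0% of all genes.

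Against CD11c+CD11b- cells 2 of the 9 genes passed, with 4.28% of all genes passing. Havcr2 was higher in CD8 T cells by 2.29 ± 0.19 (SE, n = 5 pools, edgeR adjusted p = 0.0037), and Btla was lower, at -2.27 ± 0.24 (edgeR adjusted p = 0.0066). Ctla4 and Lag3 had values of 1.53 ± 0.50 and 1.40 ± 0.42 without passing (edgeR adjusted p = 0.16 and 0.14), and Tigit had 0.08 ± 0.59 (adjusted p = 0.97). When the untreated pool was left out, 7 passed and 17.1% of all genes did. Ctla4 was then higher in CD8 T cells by 2.05 ± 0.10, Lag3 by 1.85 ± 0.14, Cd160 by 1.33 ± 0.15, Vsir by 1.08 ± 0.09 and Tigit by 0.66 ± 0.17 (n = 4 pools, edgeR adjusted p = 5.7e-05, 0.00022, 0.0014, 0.00048 and 0.042). The gap between these populations in Cd3e was 6.00 ± 0.31 on the same scale. Macrophage markers were also higher in the irradiated CD8 T libraries, at a summed 1202 to 2679 CPM against 539.5 to 1122 CPM. NK cell markers went the other way, at 95.9 to 216 CPM against 1794 to 2422 CPM. The part of these lists was not tested.

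**Figure D3:**
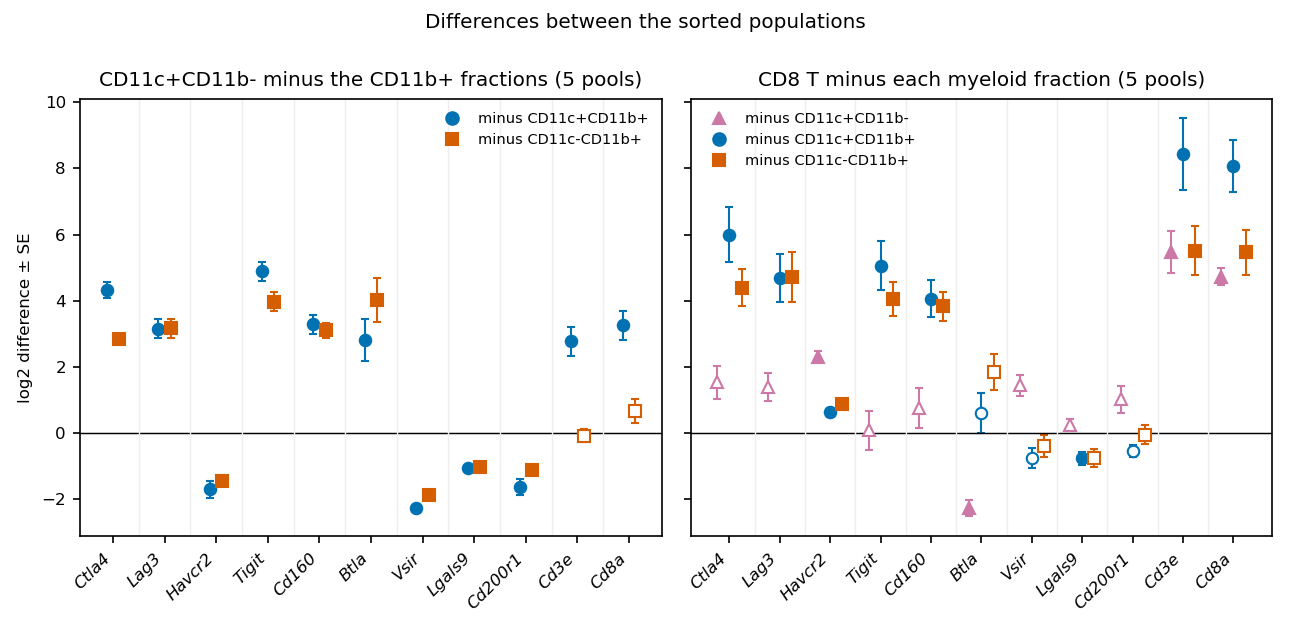
Log2 differences with their SE between sorted populations over 5 pools, for CD11c+CD11b- cells against each CD11b+ fraction (left) and for CD8 T cells against each myeloid fraction (right). Filled symbols had an edgeR adjusted p under 0.05. Tigit is at 4.89 and 3.97 on the left and at 0.08 for CD8 T against CD11c+CD11b- cells on the right, where Cd3e is at 5.48.

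Because the CD8 T libraries differ in their content of T cell transcripts, the genes were also set against Cd3e, a subunit of the T cell receptor complex, and Cd8a, the coreceptor chain. The ratios are of counts, without length correction, and are compared between libraries only. In CD8 T cells Ctla4 stood at 37.7% of the Cd3e count in the untreated library and at 27.2 to 29.6% in the irradiated ones. The ratio of Lag3 was 57.9% against 46.4 to 58.7%, that of Tigit 21% against 18.7 to 21.1%, and that of Cd160 10.8% against 9.09 to 10.9%. For Lag3, Tigit and Cd160 the untreated value was inside the irradiated range, although the CPM differed several-fold, and for Ctla4 it was above it. Btla was at 4.45% against 1.90 to 2.39%, and Havcr2 at 440% against 43.5 to 57.2%. Relative to Cd8a the untreated value was above the irradiated range for all of these genes. Ctla4 was at 23.4% of the Cd8a count in the untreated library against 13.2 to 14.2%, Lag3 at 36.0% against 23.2 to 27.9%, Tigit at 13.1% against 9.38 to 10.1% and Cd160 at 6.74% against 4.07 to 5.44%.

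The same ratios in the myeloid fractions were higher than in any irradiated CD8 T library. Against the untreated CD8 T library this did not hold throughout. Havcr2 was there at 440% of the Cd3e count, but at 412% and 273% in CD11c+CD11b- cells without treatment and with RT plus anti-SIRPa. In CD11c+CD11b- cells Ctla4 stood at 238 to 600% and Tigit at 553 to 1276% of the Cd3e count. These libraries also held NK cell markers at a summed 1330 to 2422 CPM, whose part was not tested. In CD11c-CD11b+ cells Ctla4 was at 44.2 to 86.9% and Lag3 at 77.7 to 119%, above all CD8 T libraries. In the test relative to Cd3e, all 9 genes were lower in CD8 T than in CD11c+CD11b- cells. Of all genes 97.3% passed in either direction, and the median log2 difference of all genes was -5.50. Ctla4 at -3.98 ± 0.81, Lag3 at -4.07 ± 0.82 and Havcr2 at -3.29 ± 0.88 lay above that median (edgeR adjusted p = 1.1e-06, 1.1e-06 and 0.00020), and Btla lay below it at -7.76 ± 1.01 (adjusted p = 1.2e-12). Relative to Cd3e, 8 were lower in CD8 T than in CD11c+CD11b+ cells, where 97.3% of all genes passed and the median was -8.56, and Ctla4 had -2.46 ± 1.26 (edgeR adjusted p = 0.053). Cd3e itself had only 46, 19, 25, 10 and 41 counts in the CD11c+CD11b+ libraries. Ratios to it there carry a wide counting error, and that of Vsir ran from 18200 to 115400%. Without the untreated pool 9 of 9 were lower than in either CD11c+ fraction, beside 98.1% of all genes passing against CD11c+CD11b- and 97.7% against CD11c+CD11b+ cells, and Ctla4 had -2.60 ± 0.73 against the latter (edgeR adjusted p = 0.00036). In the same test 5 were lower than in CD11c-CD11b+ cells, where 96.2% of all genes passed. Against CD11c-CD11b+ cells Ctla4, Lag3, Tigit and Cd160 had values of -1.05 ± 0.86, -0.82 ± 0.82, -1.38 ± 0.89 and -1.62 ± 0.94 (edgeR adjusted p = 0.23, 0.32, 0.12 and 0.087), whereas the median of all genes was -5.51. Without the untreated pool these 4 passed as well, and 9 of 9 genes were lower, beside 97.2% of all genes passing in either direction.

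**Figure D4:**
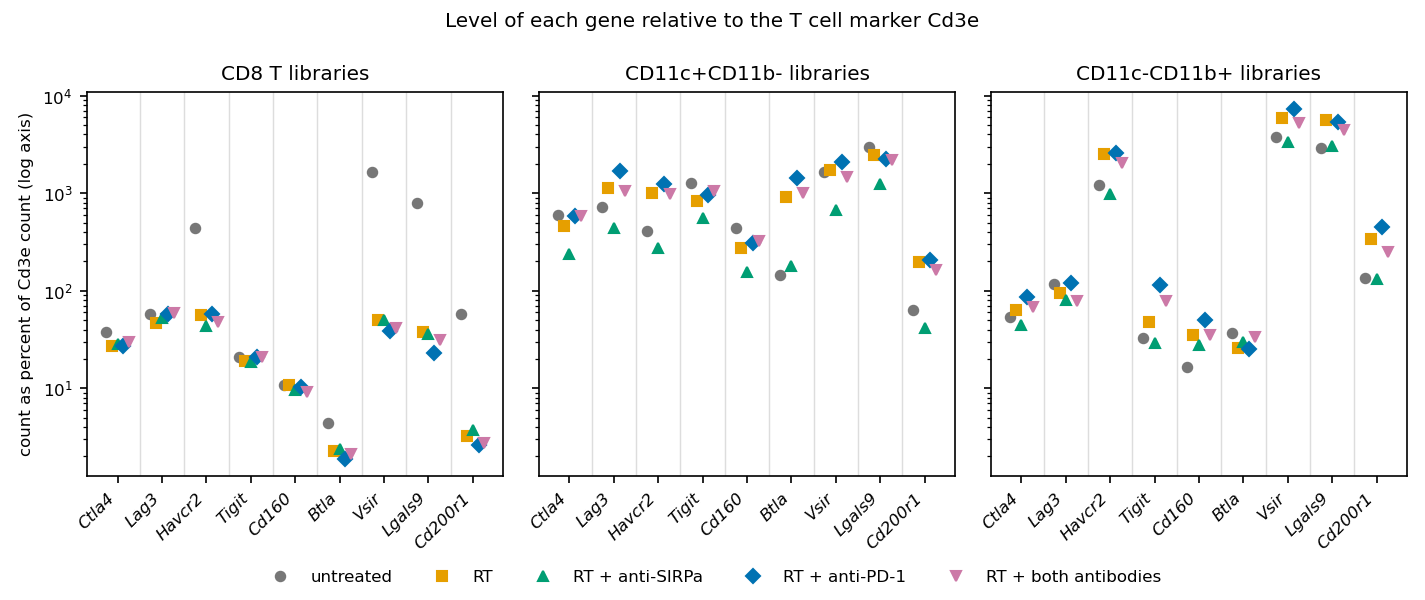
Count of each gene as a percent of the Cd3e count (log axis) in the CD8 T, CD11c+CD11b- and CD11c-CD11b+ libraries, with 1 point per library and colours for treatments. In CD8 T cells Lag3, Tigit and Cd160 of the untreated library fall on the irradiated points, while the other 6 genes stand above them.

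Irradiation was compared in each population as 4 irradiated libraries against the single untreated one, which was assumed to vary like the others. In CD8 T cells Ctla4, Lag3, Tigit, Cd160 and Btla were higher after irradiation, by 3.53 ± 0.34, 3.87 ± 0.46, 3.90 ± 0.42, 3.83 ± 0.36 and 2.89 ± 0.32 on the log2 scale (SE, n = 4 and 1, edgeR adjusted p = 0.0011, 0.0019, 0.0015, 0.0010 and 0.0015). Vsir and Lgals9 were lower, at -1.28 ± 0.13 and -0.73 ± 0.14 (edgeR adjusted p = 0.0013 and 0.012). These 7 of 9 compare with 24.4% of all genes. Cd3e, at 3.95 ± 0.34, and Cd8a, at 4.33 ± 0.40, differed as much as the receptors (edgeR adjusted p = 0.00090 and 0.0010), and the macrophage markers went the other way. Relative to Cd3e, Ctla4 had -0.42 ± 0.29, Lag3 -0.11 ± 0.30, Tigit -0.07 ± 0.32, Cd160 -0.12 ± 0.36 and Btla -1.04 ± 0.46, none of which passed (edgeR adjusted p = 0.19, 0.74, 0.83, 0.75 and 0.054). Relative to Cd8a the same 5 had -0.79, -0.47, -0.44, -0.48 and -1.40 (edgeR adjusted p = 0.059, 0.23, 0.31, 0.32 and 0.028), so that Btla passed there. On the scale of Cd3e, Havcr2, Vsir, Lgals9 and Cd200r1 were lower, with values of -3.11 ± 0.27, -5.21 ± 0.28, -4.64 ± 0.31 and -4.21 ± 0.31. On it 89.9% of all genes passed, with a median of -3.84, so that Havcr2 fell less than the median gene and the other 3 fell more. The difference between CD8 T cells and a myeloid fraction in this comparison, tested as an interaction added after the data were seen, passed for 7 of 9 genes against each fraction. Of all genes 12.1% passed against CD11c+CD11b-, 15.2% against CD11c+CD11b+ and 16.1% against CD11c-CD11b+ cells. The whole comparison turns on the library labelled untreated CD8 T, and no value can be had without it.

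In the myeloid fractions no gene of the 9 passed for irradiation in edgeR. In CD11c+CD11b- cells 0.019% of all genes passed in edgeR, while DESeq2 called 4 of the 9 and 13.1% of all genes. The values there were 3.27 ± 0.77 for Btla, 1.97 ± 0.56 for Cd200r1, 1.82 ± 0.44 for Havcr2 and 1.31 ± 0.32 for Lag3 (SE, n = 4 and 1, edgeR adjusted p = 0.094, 0.11, 0.096 and 0.097). In each of these 4 genes the untreated library was below all irradiated ones, and RT plus anti-SIRPa was the nearest to it. The cDC1 and mature dendritic cell markers were lowest in the same 2 libraries. So were those of plasmacytoid dendritic cells, CD4 and regulatory T cells, monocytes and mast cells. NK cell and T cell markers were lowest in the untreated library but highest in that of RT plus anti-SIRPa. The part of these lists was not tested. With antibody terms in the model, or with the pool of RT plus anti-SIRPa left out, 5 genes passed, beside 12.6% and 14.7% of all genes. Ctla4, Tigit and Cd160 had 0.43 ± 0.20, 0.25 ± 0.20 and 0.08 ± 0.19 in these cells (edgeR adjusted p = 0.27, 0.53 and 0.85). Of all genes 0.343% passed in edgeR in CD11c+CD11b+ cells and 0.0047% in CD11c-CD11b+ cells. DESeq2 called 1 of the 9 in each, beside 5.94% and 6.28% of all genes. Vsir had 0.59 ± 0.13 in the former and Lgals9 0.79 ± 0.19 in the latter (edgeR adjusted p = 0.11 and 0.17). Without the pool of RT plus anti-SIRPa, 2 and 3 genes passed in edgeR, beside 7.66% and 16.1% of all genes.

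Among irradiated tumours, anti-PD-1 was compared with 2 libraries on each side and anti-SIRPa as a second term, which leaves 1 residual degree of freedom. In CD8 T cells Lag3 was higher with anti-PD-1 by 0.74 ± 0.09 on the log2 scale, Tigit by 0.66 ± 0.08, Havcr2 by 0.59 ± 0.07, Ctla4 by 0.54 ± 0.07 and Cd160 by 0.44 ± 0.09 (SE, n = 2 and 2, edgeR adjusted p = 0.0053, 0.0048, 0.0055, 0.0081 and 0.031). These 5 of 9 compare with 6.97% of all genes. For each of the 5 both libraries with anti-PD-1 exceeded both without it, with the narrowest gap, from 43.6 to 48.5 CPM, in Cd160. Cd3e and Cd8a were also higher, by 0.51 ± 0.08 and 0.61 ± 0.07 (edgeR adjusted p = 0.011 and 0.0053), and the macrophage markers of the CD8 T libraries summed to 1202 and 1890 CPM with anti-PD-1 and 2679 and 2406 CPM without it. Their NK cell markers summed to 216 and 197 CPM with it and to 114 and 95.9 CPM without it. Their CD4 and regulatory T cell markers summed to 419 and 364 CPM with it and to 312 and 267 CPM without it. The part of these lists was not tested. Relative to Cd3e, Lag3 had 0.23 ± 0.12, Tigit 0.15 ± 0.11, Havcr2 0.08 ± 0.12, Ctla4 0.04 ± 0.12 and Cd160 -0.07 ± 0.12 (edgeR adjusted p = 0.14, 0.29, 0.58, 0.80 and 0.62). On that scale 45.1% of all genes passed, with a median of -0.50, and of the 9 genes Lgals9 passed at -0.46 ± 0.14 (adjusted p = 0.029). Relative to Cd8a, 61.3% of all genes passed, with a median of -0.60. Vsir, Lgals9 and Cd200r1 passed as lower there, each by less than the median gene. Scaling to a T cell gene was chosen for this comparison after the values were seen. The count of 5 was 0 without the filter on low counts, 0 with the anti-SIRPa term dropped, and 0 to 5 when 1 of the 4 libraries was left out and the anti-SIRPa term with it. It was then 0 without the library of RT alone or of RT plus anti-SIRPa, 1 without RT plus anti-PD-1 and 5 without RT plus both, where 0.0198%, 0.0203%, 0.948% and 6.55% of all genes passed. Without the filter 0.0% of all genes passed, and with the anti-SIRPa term dropped 0.0426%.

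**Figure D5:**
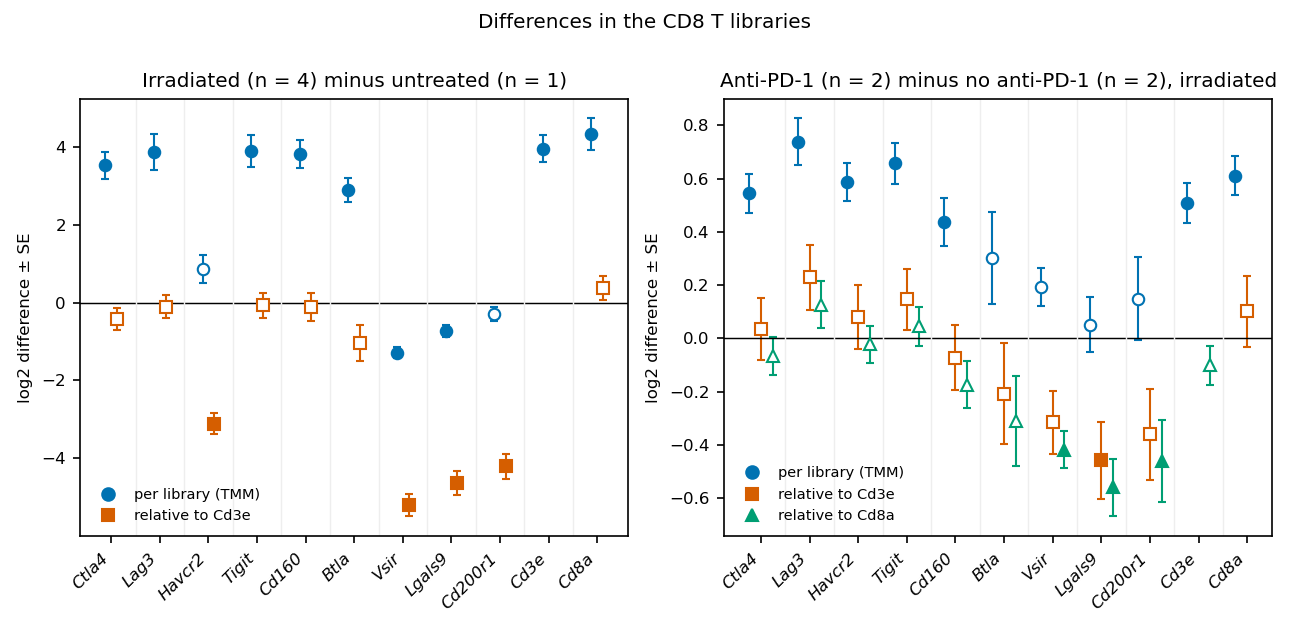
Log2 differences with their SE in the CD8 T libraries for irradiation (left) and for anti-PD-1 within irradiated tumours (right), normalised per library or relative to Cd3e or Cd8a, with filled symbols for an edgeR adjusted p under 0.05. Ctla4, Lag3, Tigit and Cd160 lie at 3.53 to 3.90 per library after irradiation, close to Cd3e at 3.95, and between -0.42 and -0.07 relative to Cd3e.

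In the myeloid fractions no gene of the 9 passed for anti-PD-1 in edgeR. DESeq2 called 1 in CD11c+CD11b- cells, beside 4.62% of all genes, and 0 in the CD11b+ fractions. Of all genes 4.10% passed in CD11c+CD11b-, 6.66% in CD11c+CD11b+ and 0.0% in CD11c-CD11b+ cells. Btla in CD11c+CD11b- cells had 1.03 ± 0.23 (SE, n = 2 and 2, edgeR adjusted p = 0.062), and it was the gene that DESeq2 called. Tigit had 1.32 ± 0.29 in CD11c-CD11b+ cells (edgeR adjusted p = 0.15), where the NK cell markers summed to 222 and 156 CPM with anti-PD-1 and to 83.3 and 59.7 CPM without it. Left out in turn, the RT library moved the counts to 3 in CD11c+CD11b- and 4 in CD11c-CD11b+ cells, in fits without the anti-SIRPa term that called 5.68% and 16.7% of all genes.

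No gene of the 9 passed in edgeR for anti-SIRPa within irradiated tumours in any population. DESeq2 called 1, Btla in CD11c+CD11b- cells, beside 1.44% of all genes there. In edgeR 0.101% of all genes passed in CD8 T, 0.00523% in CD11c+CD11b-, 0.156% in CD11c+CD11b+ and 0.0% in CD11c-CD11b+ cells. In CD11c+CD11b- cells Btla had -0.81 ± 0.22, Cd200r1 -0.69 ± 0.27 and Havcr2 -0.51 ± 0.17 (SE, n = 2 and 2, edgeR adjusted p = 0.22, 0.39 and 0.30), and the library given RT plus anti-SIRPa was the lowest irradiated one for all 3. That library also had the lowest cDC1 and mature dendritic cell sums of the irradiated ones, at 142 and 676 CPM. Its NK cell and T cell sums, at 2422 and 440 CPM, were the highest of them. The part of these lists was not tested. In CD8 T cells Havcr2 had -0.42 ± 0.07 (edgeR adjusted p = 0.12), and its 2 libraries with anti-SIRPa, at 162 and 253 CPM, were each below the matching library without it, at 223 and 333 CPM.

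The ligands and competing receptors of these genes were followed from 2 further lists, chosen by function. Of 13 ligand genes 11 were measured well enough to test, and Fgl1, a ligand of LAG-3, had 0 counts in all 20 libraries, which allows at most 0.133 CPM in the shallowest by counting error. The 6 receptors that compete or pair with them were all tested. Between CD8 T and CD11c+CD11b+ cells, 5 of the 6 receptors were higher in CD8 T cells and 7 of 11 ligands were lower, at a background of 22.3%. Cd28, the costimulatory rival of CTLA-4, was higher by 5.49 (edgeR adjusted p = 0.019), and Cd226, the activating rival of TIGIT, by 5.35 (adjusted p = 0.018). Without the untreated pool these counts were 5 receptors higher, 2 ligands higher and 8 ligands lower, beside 46.3% of all genes passing. Cd86, which CTLA-4 and CD28 share, was at 101, 194, 143, 230 and 208 CPM in CD11c+CD11b+ cells and at 17.0, 97.8, 43.9, 123 and 106 CPM in CD11c+CD11b- cells. Tnfrsf14, the partner of CD160 and BTLA, ran from 36.4 to 68.7 CPM in CD11c+CD11b+ and from 20.1 to 44.8 CPM in CD8 T cells, and was expressed in every library. Pvr, the main TIGIT ligand, was at 62.4 to 77.3 CPM in CD11c+CD11b+ cells and 35.0 to 69.4 CPM in CD8 T cells. With anti-PD-1 in irradiated CD8 T cells, 4 of the 6 receptors and 1 of 11 ligands were higher, at a background of 6.97%. Relative to Cd3e 1 receptor was higher and 1 lower, where 45.1% of all genes passed, and relative to Cd8a 1 was higher and 3 lower, where 61.3% did. Icos, a costimulatory receptor of the CD28 family, was higher by 1.03 per library (edgeR adjusted p = 0.00073), by 0.52 relative to Cd3e (adjusted p = 0.0089) and by 0.42 relative to Cd8a (adjusted p = 0.0035).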

How the data were processed

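RNA was sequenced from 20 libraries, 1 for each of 4 sorted populations and 5 treatments. Each deposited value is an estimated count of a transcript, a whole number that the authors obtained with HISAT2 and StringTie on GRCm38, per the submitters' processing notes, which also name FastQC 0.11.8 and edgeR 3.34.0. For HISAT2 and StringTie no version is known here, nor the strand setting of the counting, so reads of overlapping genes may not be separable. Of 142699 transcripts 141469 matched GENCODE M21, the rest held at most 0.4% of a library's counts, and the matched counts were summed to 55260 genes. CPM were scaled by TMM factors, and TPM corrected for transcript length.

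Tests used edgeR 4.0.16 (R 4.3.3, limma 3.58.1) with quasi-likelihood F-tests, genes filtered by filterByExpr (minimum count 10, total 15), and Benjamini-Hochberg adjustment over all genes at 0.05. Population comparisons used 5 pools with the pool as a term. Irradiation used 4 libraries against 1, and each antibody 2 against 2 with the other antibody as a term. Tests relative to Cd3e used its count as an offset. SE is the log2 difference divided by the root of F. DESeq2 1.42.0, other scaling, no filter, other terms and single pools left out were alternatives. P-values measure the spread between pools, which each hold 10 tumours. Intervals and limits cover counting error only, with 3 counts as the limit for a count of 0. On simulated counts for anti-PD-1 in CD8 T cells (18722 genes), 65 of 100 changes of 2-fold and 95 of 100 of 4-fold were recovered, with 2 false calls. Fewer of either size were recovered for irradiation in CD11c+CD11b- cells, with its single untreated library. The simulation gave every gene the same dispersion, which real genes do not share. The 9 genes were listed by name, and all of them are named in the text, as are ligands and competing receptors from the 2 further lists. These members and lists were chosen with earlier results of these data known. Sequences are from GRCm38 and from RefSeq on GRCm38.p6. A few results are not reported here. Plots used Python 3.11.15 and matplotlib 3.10.9.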

Additional observations from a re-analysis of the deposited data

Results flagged for a closer look

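The difference between irradiated and untreated tumours was itself compared between CD8 T cells and each myeloid fraction, with edgeR's quasi-likelihood test of the interaction, and 7 of the 9 genes passed in each comparison. This test was added after the data were seen. Every value here rests on the library labelled untreated CD8 T, in which T cell markers were at 4.34 to 7.35% of their mean in the other CD8 T libraries, and that library's part was not tested. Of all genes 15.2% passed against CD11c+CD11b+ cells, 12.1% against CD11c+CD11b- cells and 16.1% against CD11c-CD11b+ cells.

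Against CD11c+CD11b+ cells the log2 difference was larger in CD8 T cells by 4.42 for Ctla4, 3.93 for Tigit, 3.73 for Lag3, 3.47 for Btla and 3.06 for Cd160, and it was -1.85 for Vsir and -1.13 for Lgals9. Against CD11c+CD11b- cells it was 3.74 for Cd160, 3.64 for Tigit, 3.09 for Ctla4 and 2.55 for Lag3, and -2.27 for Cd200r1, -1.92 for Vsir and -1.02 for Lgals9. Against CD11c-CD11b+ cells it was 4.04 for Lag3, 3.10 for Ctla4, 3.07 for Btla, 2.74 for Tigit and 2.53 for Cd160, and -1.94 for Vsir and -1.52 for Lgals9. The edgeR adjusted p ran from 0.00043 for Ctla4 against CD11c+CD11b+ cells to 0.045 for Tigit against CD11c-CD11b+ cells. The same interaction for Cd3e was 5.00, 2.99 and 3.78 in the order of the comparisons above.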

How the results depend on the processing

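Of 1629 values of single genes under alternatives, 1410 kept their direction and their side of the threshold, 74 lost the call, 63 gained it, 8 reversed and another 74 turned sign without passing in either fit. Of 182 counts of called genes, 152 stayed within 1.5 times. RLE scaling changed 0 of 162 calls, and leaving out the filter kept 190 of 198.

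DESeq2 called 5 genes for CD8 T against CD11c+CD11b- cells (11.6% of all genes), 1, 4 and 1 for irradiation in the CD11c+CD11b+ fraction, the CD11c+CD11b- fraction and the CD11c-CD11b+ fraction, and 1 each for anti-PD-1 and anti-SIRPa in CD11c+CD11b- cells. Without the pool term 2 genes passed between the CD11b+ fractions, and with antibody terms 5 passed for irradiation in CD11c+CD11b- cells. For anti-PD-1 in CD8 T cells 0 passed without the filter, 0 with the anti-SIRPa term dropped, 1 relative to Cd3e and 3 relative to Cd8a. There, relative to Cd8a, the log2 difference reversed to -0.066 for Ctla4, -0.022 for Havcr2, -0.17 for Cd160, -0.42 for Vsir, -0.56 for Lgals9 and -0.46 for Cd200r1, and relative to Cd3e to -0.073 for Cd160 and -0.46 for Lgals9. Those reversals follow from the construction, since Cd3e and Cd8a were themselves higher. The cause of the other changes was not tested.

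With single pools left out, the count was 9 to 9 for CD11c+CD11b- against either CD11b+ fraction, 1 to 5 between the CD11b+ fractions, 2 to 7, 0 to 9 and 5 to 8 for CD8 T against the CD11c+CD11b- fraction, the CD11c+CD11b+ fraction and the CD11c-CD11b+ fraction, and 9 to 9, 7 to 9 and 5 to 9 for the same relative to Cd3e. For irradiation it was 7 to 8 in CD8 T cells, 4 to 4 there relative to Cd3e, 0 to 5 in CD11c+CD11b-, 0 to 2 in CD11c+CD11b+ and 0 to 3 in CD11c-CD11b+ cells. For anti-PD-1 it was 0 to 5 in CD8 T, 0 to 3 in CD11c+CD11b-, 0 to 0 in CD11c+CD11b+ and 0 to 4 in CD11c-CD11b+ cells, and for anti-SIRPa 0 to 0 in all 4. The share of all genes that passed moved with the pools left out too, so these ranges are not particular to the 9 genes. For CD8 T cells against the CD11c+CD11b-, CD11c+CD11b+ and CD11c-CD11b+ fractions that share was 4.28%, 22.3% and 24.0% over all pools. Without the untreated pool it was 17.1%, 46.3% and 48.0% in the same order. Comparisons between populations were paired by pool throughout, except where the pool term was dropped. Within a population no paired analysis was possible because each treatment is 1 library from its own pool.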

Other observations

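The genes whose normalised level over the 20 libraries was most like that of a member were looked up among 10572 genes. The values are Pearson correlations of libraries that share pools and populations, given as a description. Celsr1 and Ubash3a were among the genes most like Ctla4 (0.993 each), and Tigit was most like Skap1, Gimap7 and Sytl3 (0.995 each). Lag3 was nearest to Hid1 (0.987). Btla was nearest to Synpo2 (0.966), followed by Slc4a8 (0.958) and Traf1 (0.956). Vsir was nearest to Kcna3 (0.977), Lgals9 to Oas1a (0.978), an interferon-induced gene, Havcr2 to Ifi27l2a (0.923) and Cd200r1 to Ahcyl2 (0.953).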
